A study of Mus musculus with 6 samples.

Results

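The carbohydrate sulfotransferase genes Chst1, Chst2, Chst3, Chst4, Chst5, Chst7, Chst8, Chst10, Chst11 and Chst12 were followed in the mouse esophagus, by every non-control probe that carries one of these gene names. They are 10 genes with 16 probes, of 28104 gene names with 41174 probes on the array. All 10 had at least 1 probe bright enough to test, 12 of the 16 probes in all. Adult mice were compared on 6 arrays of 2 colours each, 3 labelled wild type (C57BL/6J) and 3 labelled Pax9 knockout (K5Cre;Pax9 loxp/loxp), with the sample given as esophageal epithelium. Pax9 encodes a paired-box transcription factor, and the keratin 5 Cre driver acts in the basal cells of stratified epithelium. A floxed allele in cells not derived from these basal cells would be left in place. On every array the esophagus RNA was in Cy5, and a reference shared by all arrays, a pool of RNA from 11 cultured lines of mouse cells, was in Cy3, with no dye swap. Whether the wild type mice carried a Cre or a floxed allele is not given in the labels. The labels call the arrays of a group biological replicates and say nothing further of the animals, so each SD given here is the spread between these samples. Each SE is the moderated one of the limma fit, which draws the variance of a probe toward that of all tested probes. It can therefore be larger or smaller than the samples' own spread would give.

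Carbohydrate sulfotransferases sit in the Golgi membrane and move a sulfate group from the activated donor PAPS onto a sugar of a growing glycan. Chst3, Chst7, Chst11 and Chst12 sulfate chondroitin, the long chain carried by proteoglycans such as aggrecan and versican. Chst1, Chst2, Chst4 and Chst5 add sulfate at the 6-O position of galactose or N-acetylglucosamine, which builds keratan sulfate and the sulfated sialyl Lewis x that L-selectin on lymphocytes binds. Chst8 marks pituitary hormone glycans with 4-O sulfate, and Chst10 makes the HNK-1 epitope known from nerve tissue.

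The genes farthest above wild type on the arrays labelled knockout were Chst5, Chst4 and Chst3. Their probes and promoters are shown first, because the differences below rest on these short stretches of sequence. Each is the opening 30 bases of a 60-base probe, in lower case, with the mm9 position of the whole probe given by the scanner files. The Chst5 probe lies on chromosome 8 at 114413510 to 114413569, minus strand. The Chst4 probe lies on the same chromosome at 112554079 to 112554138, minus strand. The bright Chst3 probe lies on chromosome 10 at 59644506 to 59644565, minus strand, and a dim Chst3 probe lies at 59648496 to 59648555. Whether a probe falls in a coding exon or an untranslated region was not determined here.
Chst5 probe: tccaaatcccacatctctttctgtccagat
Chst4 probe: tctgcaaaagccaggtggacatagtcaagg
Chst3 bright probe: cgctcagagtagagttcatgacctaggaaa
Chst3 dim probe: atgtctactccactcagaaaaactcttctg
Among the 113 pairs of probes from different member genes, the longest stretch shared by a pair, on either strand, was 10 bases.

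The RefSeq promoters of these 3 genes, from 250 bases before to 50 after the start of the gene in build GRCm38.p6, are shown because the 3 genes were higher together. Capitals mark GGGCGG, the GC box, on either strand (CCGCCC on the other), and GTCACGC, the opening of a paired-domain site of the Pax1 and Pax9 type, also searched on either strand. All 10 members matched a promoter. A match is only a match of letters.
Chst5 promoter, chr8:111910150-111910449, minus strand: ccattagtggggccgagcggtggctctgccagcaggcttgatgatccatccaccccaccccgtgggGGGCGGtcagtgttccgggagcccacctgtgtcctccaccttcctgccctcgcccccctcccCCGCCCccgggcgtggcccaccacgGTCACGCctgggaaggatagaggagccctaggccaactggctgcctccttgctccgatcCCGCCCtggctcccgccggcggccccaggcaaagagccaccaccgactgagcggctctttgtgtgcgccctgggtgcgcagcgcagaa
Chst4 promoter, chr8:110039285-110039584, minus strand: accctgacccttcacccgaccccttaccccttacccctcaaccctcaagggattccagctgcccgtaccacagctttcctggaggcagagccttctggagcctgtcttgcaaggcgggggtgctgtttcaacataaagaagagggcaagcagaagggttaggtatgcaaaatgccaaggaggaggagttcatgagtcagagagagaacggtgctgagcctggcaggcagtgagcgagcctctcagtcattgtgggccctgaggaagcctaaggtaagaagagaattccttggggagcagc
Chst3 promoter, chr10:60219211-60219510, minus strand: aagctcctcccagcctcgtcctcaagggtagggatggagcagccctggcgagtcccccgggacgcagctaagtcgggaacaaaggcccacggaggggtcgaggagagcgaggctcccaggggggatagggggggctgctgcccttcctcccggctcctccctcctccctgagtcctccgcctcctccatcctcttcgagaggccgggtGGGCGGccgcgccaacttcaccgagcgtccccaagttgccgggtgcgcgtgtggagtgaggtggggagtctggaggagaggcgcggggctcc
GGGCGG occurred in 35.7% of all 32851 promoters of this length and in 7 of the 10 member promoters, with 3 matches in Chst5, 1 in Chst3 and none in Chst4. GTCACGC occurred in 2.09% of all promoters and in 1 member promoter, that of Chst5, where it begins 97 bases before the start. TATAAA, the TATA box, occurred in 13.6% of all promoters and in 0 of the members. The promoters of Chst5 and Chst3 were rich in G and C (70.7% and 70.0%), that of Chst4 less so (56.3%), beside a median of 52.7% over all promoters.

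Several facts of the whole series bear on what follows. The targeted gene, Pax9, did not read lower in the knockout group. Its probe gave 6.28, 6.13 and 5.70 on the wild type arrays and 6.81, 6.78 and 6.72 on those labelled knockout, as log2 of sample over reference (difference 0.73, limma adjusted p = 0.071). Which part of Pax9 is removed is not given in the labels, and a probe beyond it cannot check the genotype, so each direction here rests on the labels. The arrays of each group shared 1 slide and 1 scan, so slide and genotype cannot be told apart. Between 67.3% and 77.3% of probes were well above background in Cy5. The esophageal markers Krt4, Krt13 and Sprr3 were bright on every array. Of 14 tested esophageal markers 3 had a higher mean ratio in the knockout group and 11 a lower one. In limma 1 of them had an adjusted p under 0.05, lower. The 12 skeletal muscle markers were measured too, with summed Cy5 signals of 39938 to 441214 on the wild type arrays and 251193 to 2216224 on those labelled knockout. Such sums are background-subtracted but not normalized between arrays. The median Cy5 signal of an array was itself 56 to 159 in wild type and 97.5 to 133 in the knockout group. Of these 12, 10 had a higher mean ratio and 2 a lower one. In the test 1 passed, higher, beside 4.84% of all genes (2.83% higher and 2.00% lower). With the replicate block 5 passed higher and 1 lower, beside 8.20% of all genes (4.97% higher and 3.23% lower). The same sum ran from 2653 to 9721 against 6764 to 8791 for 8 endothelial markers. Of these, 6 had a higher mean ratio and 2 a lower one, and 0 passed (2 higher with the replicate block). For 12 leukocyte markers it ran from 16115 to 130106 against 34095 to 73172. Of these, 3 had a higher mean ratio and 9 a lower one, and 2 passed, lower (3 lower with the replicate block). Every marker of the skeletal muscle, endothelial and leukocyte lists was bright enough to test. No tested marker of the smooth muscle, fibroblast or nerve lists passed, and their median differences were 0.21, 0.18 and 0.60. In such bulk RNA, more cells of a type and more RNA per cell cannot be told apart, and the part of muscle or other cells in the differences below was not tested.

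Values are log2 ratios of esophagus over reference after background correction and loess normalization, and differences are knockout minus wild type as labelled. The 10 genes were chosen by name with these same differences between knockout and wild type arrays known, so the differences are a description and carry no test. 3 of the 10 genes, Chst3, Chst4 and Chst5, lay past an adjusted p of 0.05 in the limma fit of all probes, all higher, and 0 lay past it in the lower direction. Over all 20820 genes the shares were 4.84% in either direction, 2.83% higher and 2.00% lower, and over all probes 4.18%, beside 3 of the 12 member probes. Nothing is read from the members' count. Blocking on the replicate number left the same 3 members past it, all higher, beside 8.20% of all genes (4.97% higher and 3.23% lower). The groups did not overlap in 5 of the 10 genes, 3 higher and 2 lower, where 32.2% of all genes did not overlap. The median difference was -0.03 over the 10 genes and 0.01 over all genes. Chst5 and Chst8 were bright enough to be tested only through the arrays labelled knockout, and Chst2 only through the wild type arrays, so their place among the tested genes is tied to their direction.

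**Figure D1:**
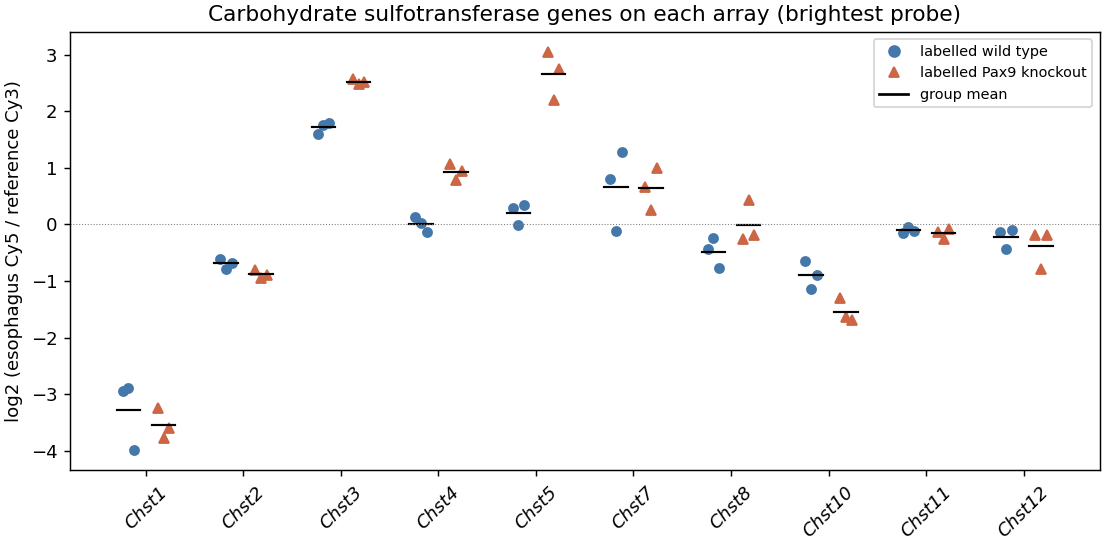
Log2 ratio of esophagus (Cy5) over reference (Cy3) of the brightest probe of each of the 10 genes on each of the 6 arrays, with circles for wild type, triangles for Pax9 knockout as labelled, and bars for group means. The groups are apart in Chst3, Chst4 and Chst5, which are higher in the knockout group, and in Chst2 and Chst10, which are lower.

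Chst5, known as the intestinal N-acetylglucosamine 6-O-sulfotransferase and as an enzyme of corneal keratan sulfate in mice, differed most. Its log2 ratio was 0.29, -0.01 and 0.35 on the wild type arrays and 3.05, 2.20 and 2.76 on the arrays labelled knockout. The groups lay far apart, with means of 0.21 ± 0.19 and 2.67 ± 0.43 (SD, n = 3 each). The difference was 2.46 (SE 0.24), a 5.50-fold higher ratio. In Cy5 alone, before any ratio, the background-subtracted signal was 8.4, 8.1 and 19.4 in wild type and 371, 212 and 338 in the knockout group. Only 1 of the 3 wild type arrays was well above background, so the wild type level is poorly measured and the size depends on how dim signals are treated. It was 3.19 with no offset in the background correction. The reference channel was dim on this probe and also moved with the group. It was at 5.5 to 8.3 on the wild type arrays and 20.0 to 31.2 on the others. With each channel normalized alone, Cy5 differed by 2.07 and Cy3 by 0.45.

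Chst4, the sulfotransferase of high endothelial venules in lymph nodes, read 0.13, 0.03 and -0.13 on the wild type arrays and 1.06, 0.78 and 0.94 on those labelled knockout. All 3 knockout values lay above all wild type values. The difference was 0.92 (SE 0.15), from 0.01 ± 0.13 to 0.93 ± 0.14 (SD, n = 3 each). The Cy5 signal was 25.6, 32.4 and 54.6 against 302, 262 and 306. The Cy3 signal of the reference, which is the same RNA on all arrays, was 95.9, 98.7 and 95.4 against 303, 287 and 303. Both channels thus moved with the group on this probe. Normalized on its own, Cy5 differed by 1.56 and Cy3 by 1.35. The ratio was also sensitive to its normalization: it was 0.55 in the deposited log ratio and 0.24 with median centring in place of loess, neither past an adjusted p of 0.05. A reference channel that differs between the groups was common on these arrays, with 53.9% of all genes past the same threshold in Cy3 alone.

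Chst3, chondroitin 6-sulfotransferase, was the member above the reference on every array. Its bright probe read 1.61, 1.77 and 1.80 in wild type and 2.58, 2.48 and 2.53 in the knockout group. The spread within each group was small (means 1.73 ± 0.10 and 2.53 ± 0.05, SD, n = 3 each) and the groups did not overlap. The difference was 0.80 (SE 0.14), a 1.74-fold higher ratio. Here the channels behaved otherwise than for Chst4: Cy5 alone differed by 0.77 and Cy3 alone by 0.01. The unnormalized Cy5 signals, 664, 830 and 2376 against 2040, 3187 and 3094, did overlap, since wild type replicate 3 was brighter than the other wild type arrays. The dim probe of Chst3 was not well above background on any array, with Cy5 signals of 1.8 to 13.3, and says nothing of the gene.

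**Figure D2:**
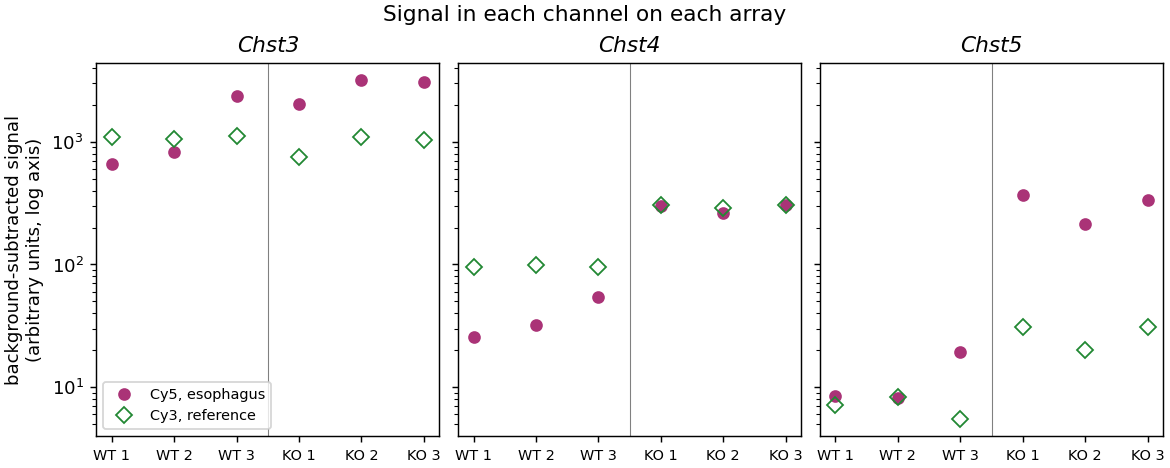
Background-subtracted signal of the Chst3, Chst4 and Chst5 probes on each array (log axis, arbitrary units), filled circles for esophagus in Cy5 and open diamonds for the reference in Cy3. For Chst4 the reference stands at 95.4 to 98.7 on the wild type arrays and at 287 to 303 on those labelled knockout. For Chst5 it is dim and stands at 5.5 to 8.3 and at 20.0 to 31.2. For Chst3 it does not separate the groups.

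How these 3 values move with the processing is given as a description only, because the genes were chosen with them known and Chst5 entered the fit only through the arrays labelled knockout. Chst5 lay past the threshold in 15 of 17 alternatives, with differences of 1.51 to 3.19, and missed it with median centring (1.51) and without Pax9 knockout replicate 3 (2.41). Chst3 passed in 10 of 18 alternatives, with differences of 0.67 to 1.04. Chst4 also passed in 10 of 18, with differences of 0.24 to 1.56. Leaving out single arrays kept Chst3 past the threshold only without wild type replicate 3, and Chst4 only without Pax9 knockout replicate 2. The direction of all 3 was the same in every alternative run, but for many of the runs this was fixed beforehand. Leaving out a single array cannot turn the sign where the groups do not overlap. Changing the probe filter or adding the replicate block leaves the difference itself unchanged.

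**Figure D3:**
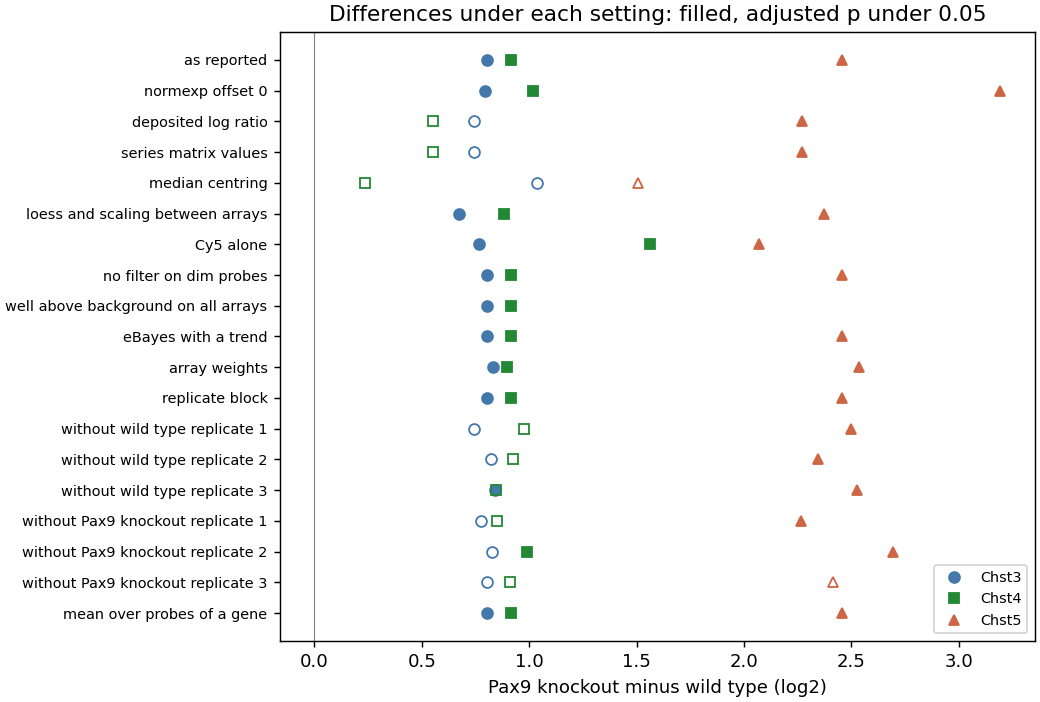
Difference of knockout minus wild type (log2) for Chst3, Chst4 and Chst5 under each processing alternative, filled where the adjusted p over all probes was under 0.05. Chst5 stays between 1.51 and 3.19, and Chst4 moves most in proportion, from 0.24 to 1.56.

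The remaining 6-O-sulfotransferases of keratan and L-selectin ligands were not higher. Chst2, widely expressed and a partner of Chst4 in lymph nodes, read -0.61, -0.79 and -0.68 in wild type and -0.81, -0.95 and -0.89 in the knockout group. The groups did not overlap (SD 0.09 in wild type and 0.07 in the knockout group, n = 3 each). The difference was small, -0.19 (SE 0.14), and the probe was well above background on 1 of 3 knockout arrays. A further Chst2 probe was dim on all 6 arrays. Chst1, keratan sulfate galactose 6-sulfotransferase, read -2.95, -2.88 and -3.99 in wild type and -3.25, -3.77 and -3.60 in the knockout group. The knockout values lay inside the wild type range, and the difference was -0.26 (SE 0.32). Its reference signal, 49314 to 56692, was strong and its esophagus signal was 1773 to 2775.

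Chst7, which sulfates both N-acetylglucosamine and chondroitin, varied more within the groups than between them. It read 0.80, -0.12 and 1.28 in wild type and 0.66, 0.25 and 1.01 in the knockout group. In each group replicate 2 was lowest and replicate 3 highest. The difference was -0.02 (SE 0.37), and over single left-out arrays it lay between -0.40 and 0.30.

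The chondroitin 4-sulfotransferases Chst11 and Chst12 showed no difference beyond their spread. Chst11, the main 4-sulfotransferase of cartilage, read -0.15, -0.04 and -0.12 against -0.13, -0.26 and -0.07 on its brightest probe, a difference of -0.05 (SE 0.14). Its other tested probe differed by -0.11 (SE 0.16), although both channels of that probe were lower in the knockout group (Cy5 alone -0.64, Cy3 alone -0.80). The remaining Chst11 probe was not well above background in Cy5 on any array. Chst12 has a pair of overlapping probes, on chromosome 5 at 141001089 to 141001148 and at 141001127 to 141001185 (mm9, plus strand). They are shown over the part where they meet, with the 22 shared bases in capitals, because these neighbouring stretches of transcript gave ratio differences of opposite sign, neither much beyond its SE.
Chst12 brightest probe, last 30 bases: ttctaagaTTAATATATTTCAGATATATTT
Chst12 other probe, first 30 bases: TTAATATATTTCAGATATATTTaatacgaa
The brightest probe read -0.13, -0.44 and -0.10 in wild type and -0.19, -0.79 and -0.19 in the knockout group, a difference of -0.17 (SE 0.21). The other read -0.78, -1.28 and -0.69 against -0.32, -1.19 and -0.25, a difference of 0.33 (SE 0.29). On both probes and in both groups replicate 2 was lowest, and the groups overlapped. The opposite signs did not hold under every setting: both differences were above 0 with Cy5 alone (0.42 and 0.68), with median centring (0.08 and 0.55) and without Pax9 knockout replicate 2 (0.03 and 0.63). The brightest probe held 21.7% G and C, the lowest share of the 16.

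Chst8 and Chst10 act on more special glycans. The probe of Chst8, the enzyme of pituitary hormone sulfation, was not well above background on any wild type array and was above it on all 3 knockout arrays. Its ratio read -0.44, -0.24 and -0.76 in wild type and -0.26, 0.43 and -0.19 in the knockout group, which overlap. The difference was 0.47 (SE 0.24) and ranged from 0.19 to 1.68 over the alternatives, against a wild type level that was not well measured. A further Chst8 probe was dim on all 6 arrays. Chst10, HNK-1 sulfotransferase, read -0.64, -1.14 and -0.89 in wild type and -1.30, -1.64 and -1.68 in the knockout group. All knockout values lay below all wild type values, with a difference of -0.65 (SE 0.19), the largest in the lower direction among the 10 genes. It did not lie past the threshold, except with Cy5 alone, where 28.8% of all genes did. Its difference was below 0 in all 18 alternatives, between -0.96 and -0.44. With groups that do not overlap, leaving out a single array could not have turned that sign.

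**Figure D4:**
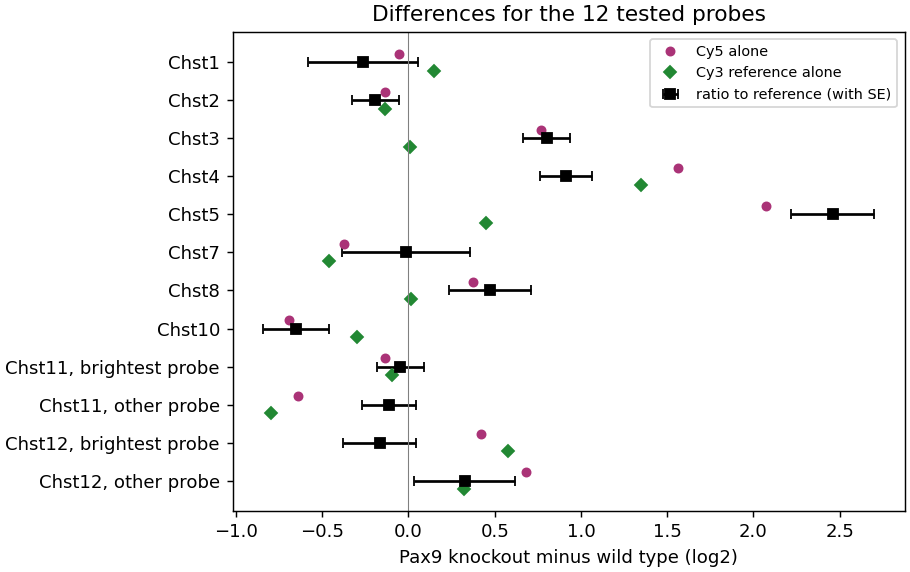
Difference of knockout minus wild type (log2) for the 12 tested probes, squares for the ratio with its moderated SE, circles for Cy5 alone and diamonds for Cy3 alone. Chst4 has the largest move of the reference channel among the 12 probes (1.35, beside 1.56 in Cy5). A reference that moved about as far as Cy5, or farther, is also seen elsewhere, as on the other Chst11 probe (-0.80, beside -0.64 in Cy5). For the probe pair of Chst12 the ratios lie on opposite sides of 0 while each channel alone lies above 0.

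The rest of the sulfation pathway was read from 6 lists of genes grouped by function. In limma 5 of 94 tested genes passed an adjusted p of 0.05, beside 4.84% of all genes: 3 higher and 2 lower. Ndst3 and Slc26a1 among them entered the test only through the group where they are high, so their calls are tied to their direction and count as no support for it. Median centring and leaving out wild type replicate 1 or Pax9 knockout replicate 3 each left 0 of the pathway genes past the threshold, and without wild type replicate 2 or Pax9 knockout replicate 1 there was 1. Among 18 other sulfotransferases 0 passed higher and 1 lower, and the median difference was -0.04. The gene past the threshold was Ndst3, a heparan sulfate N-deacetylase and N-sulfotransferase, which read 0.78, 0.54 and 0.42 in wild type and -0.20, -0.51 and -0.40 in the knockout group. Its difference was -0.95 (SE 0.16, adjusted p = 0.03), with 2 of the 3 knockout arrays well above background, and it passed in 11 of 17 alternatives. Cy5 alone differed by -0.99 and Cy3 alone by -0.42. Ndst1, the widely expressed enzyme of the same step, differed by -0.46 (adjusted p = 0.10). Of the sulfotransferases nearest to the members, Chst14, which makes 4-O-sulfated dermatan, differed by -0.07 and Chst15, which adds a further sulfate to chondroitin 4-sulfate, by 0.23, with adjusted p of 0.87 and 0.48. Chst9 and Chst13 were too dim to test.

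Of 9 genes of sulfate donor supply 1 passed, higher. Slc26a1, a sulfate anion transporter, read 0.16, 0.17 and 0.36 in wild type and 2.33, 1.35 and 2.22 in the knockout group. The difference was 1.73 (SE 0.27, adjusted p = 0.024), but only 1 of 3 wild type arrays was well above background, so its size is poorly measured. It passed in 10 of 17 alternatives, between 0.94 and 2.40, and not in the deposited log ratio (2.02). The reference on this probe was dim and moved with the group, at 5.2 to 8.5 against 19.9 to 22.6. Cy3 alone differed by 0.37. The PAPS synthases Papss1 and Papss2 differed by 0.24 and 0.33 (adjusted p of 0.47 and 0.32). Papss2 was dim, well above background on 2 of 3 wild type arrays, and entered the test only through the arrays labelled knockout. The list's median was 0.24.

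Chondroitin and dermatan chain synthesis had 1 member up and 0 down of 14, with a median of -0.06. Chpf, the chondroitin polymerizing factor that works with the chondroitin synthases, read 1.00, 0.70 and 1.35 in wild type and 3.05, 2.24 and 2.62 in the knockout group. It rose by 1.62 (SE 0.26, adjusted p = 0.025) and passed in 13 of 18 alternatives, not with median centring nor without wild type replicate 1 or 2 or Pax9 knockout replicate 1 or 3. Cy5 alone differed by 1.61 and Cy3 alone by -0.04. Chsy1, a chondroitin synthase, differed by 0.13 (adjusted p = 0.70) and Dse, the dermatan sulfate epimerase, by -0.52 (adjusted p = 0.14).

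Of 11 enzymes of keratan, HNK-1 and L-selectin ligand chains 1 fell and 0 rose, with a median of -0.03. It was Fut7, the fucosyltransferase that completes sialyl Lewis x, which read 0.44, -0.15 and 0.12 in wild type and -1.10, -1.17 and -1.12 in the knockout group. The knockout values were close together and all below wild type, with a fall of 1.27 (SE 0.18, adjusted p = 0.02). That call was lost in 4 of 18 alternatives: median centring, and without wild type replicate 1 or Pax9 knockout replicate 1 or 3. The reference was lower in the knockout group on the Fut7 probe too: Cy5 alone differed by -1.30 and Cy3 alone by -0.38. Fut7 and Chst4 act on the same L-selectin ligand, and their ratio differences had opposite signs.

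Among 31 proteoglycan core proteins and sialomucins 1 rose and 0 fell, with a median of 0.05. With the replicate block 2 were higher, Sdc3 and Epyc (1.16), and 1 lower, Bgn (-1.24). Sdc3, syndecan 3, read -1.01, -1.37 and -1.32 in wild type and 0.95, -0.17 and 0.30 in the knockout group, a rise of 1.59 (SE 0.29, adjusted p = 0.033). Leaving out any single array other than Pax9 knockout replicate 2 ended that call, as did median centring (1.84), the deposited log ratio and the matrix values (1.42 in both). Averaged over its probes the difference was 0.95. Sdc1 (-0.40), Cd44 (-0.34) and Dcn (0.10) did not pass, with adjusted p of 0.30, 0.29 and 0.91. No sulfatase gene of 11 passed in limma, where 5 had an unadjusted p under 0.05, 4 lower and 1 higher, as had 24.7% of all genes. With the replicate block 1 passed, lower. The median of this list was -0.45, the lowest of the 6.

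**Figure D5:**
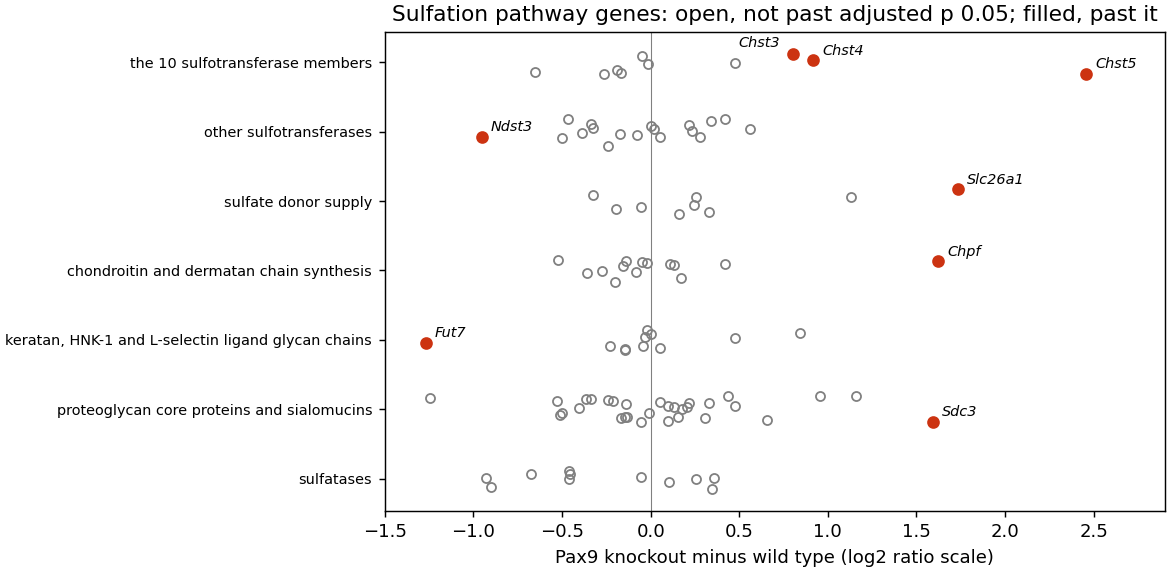
Difference of knockout minus wild type (log2) for the 10 members and for each tested gene of the 6 pathway lists, filled where the adjusted p was under 0.05. Apart from the members, the filled points are Ndst3 and Fut7 on the lower side and Slc26a1, Chpf and Sdc3 on the higher side.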

How the data were processed

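The scanner files hold linear intensity values, written by Feature Extraction 10.7.3.1 for Agilent design 014868, per the file headers (9.1 per the submitters' processing notes). The authors' deposited log10 ratios carry the program's own dye normalization. The deposited matrix holds log2 values of reference over sample, by its correlation with the scanner ratio (-0.996 to -0.993), so its sign was turned. Its centring is not stated.

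Background was corrected with normexp (offset 50), followed by loess within arrays. Control spots were left out and outlier spots, 55 to 164 per array, set to missing. A probe was tested if well above background in Cy5 on all 3 arrays of a group (30505 probes, of which 1274 passed). The fit used limma 3.58.1 in R 4.3.3 without a covariate, two-sided, with Benjamini-Hochberg adjustment over tested probes. A gene is its brightest tested probe. The fit alone was run on simulated log ratios, with shifts of known size added to independent noise. These held no slide, replicate, reference-channel or dim-signal effect, so they cannot check the procedure against such effects. With 6 arrays the number of arrays limits the precision, and an exact permutation test of 3 against 3 cannot go below p = 0.1.

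Members and lists were chosen with earlier results of these data known. Named were every member, the genes past the threshold in each list (or that with the smallest p), and 12 fixed genes. One gene under this rule is not reported here. Whether the replicate numbers pair the arrays is not given in the labels. Deviations from group means correlated at 0.17, 0.51 and 0.34 between arrays of the same number across groups. Between arrays of different number they correlated at -0.49 to 0.16. The deviations of a group cancel out, so these correlations are tied to each other and do not establish a pairing. Slide position also runs with the number. With a block on the replicate number 1707 of 20820 genes passed instead of 1007.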

Additional observations from a re-analysis of the deposited data

How the results depend on the processing

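The number of genes past the threshold, 1007, depended on the setting: 571 with the deposited log ratio, 561 with the matrix values, 120 with median centring, 6004 with Cy5 alone, 558 with probes well above background on all arrays, 2469 with array weights and 1707 with the replicate block. The corresponding counts of probes (1274) were 727, 714, 139, 8277, 699, 3311 and 2254. The 3 member genes past the threshold became 1 with either the deposited ratio or the matrix, and 0 with median centring. The replicate block ended no call of a member. The 5 pathway genes became 0 with median centring, 24 with Cy5 alone, 3 with probes well above background on all arrays, 12 with array weights and 8 with the replicate block. Leaving out 1 array gave 34 to 826 genes, 38 to 1111 probes, 0 to 2 members and 0 to 6 pathway genes. The lowest gene counts came without Pax9 knockout replicate 3 (34), wild type replicate 1 (87), wild type replicate 2 (164) and Pax9 knockout replicate 1 (267). No alternative turned the sign of a member or pathway gene past the threshold. Many could not: the groups of these genes do not overlap, so leaving out a single array keeps the sign. The probe filters and the replicate block do not change the difference of a probe. The cause of these changes was not tested. Cy5 signals near background limit Chst2, Chst5, Chst8, Ndst3, Papss2 and Slc26a1.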
